A study of Mus musculus with 6 samples.

Results

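Rab GTPases are small switch proteins that give the membranes of a cell their identity. Bound to GTP, each Rab sits on its own compartment by a lipid tail and recruits effectors that tether, move or fuse vesicles; exchange factors (GEFs) load it with GTP, GTPase-activating proteins (GAPs) switch it off, and carrier proteins take the inactive form back into the cytosol. In macrophages, Rab5 and Rab7 follow each other on a maturing phagosome, and other Rabs serve membrane recycling, secretion and lysosome-related organelles.

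The genes described here are those whose Ensembl identifier maps to a mouse symbol made of Rab, a number and at most 1 letter and 1 further digit, so Rab-like genes and Rab-binding proteins are outside the family as counted. The table of read counts held 59 such genes among 21965. Of these, 46 had enough counts to be tested and 13 did not. The libraries were polyA-selected RNA of interstitial macrophages, which live in lung tissue outside the alveolar space, obtained with fluorochrome-labelled antibodies from digested lungs of C57Bl/6 mice aged 6 to 8 weeks. One group received 1 mg of WGP, a β-glucan (a glucose polymer of yeast cell walls), into the peritoneum and the other received phosphate-buffered saline (PBS) by the same route. Treatment is given as 6 days for both groups and lungs were harvested on day 7. There were 3 libraries a group, and the titles in both groups also carry the word Control, which the labels do not explain. The labels do not say whether the libraries came from separate mice. A p-value here thus weighs the difference between the groups only against the spread of these libraries. Among the WGP libraries that spread may be technical.

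Library totals ran from 18254678 to 20346517 counts, and levels are given as CPM, counts scaled to library size with TMM factors. Interstitial macrophage genes were abundant in all libraries (summed over 18 markers, 9415 to 10610 CPM after PBS and 7612 to 8882 after WGP), and none of them was at 0. Of these 18, 3 rose and 5 fell, with a median log2 fold change of -0.47. Genes of some other cells differed between the groups. The 17 alveolar macrophage markers summed to 5125 to 7755 CPM after PBS and 1298 to 1662 after WGP, and 16 of them fell, with none at 0. The 11 classical monocyte markers summed to 5062 to 5857 CPM after PBS and 11547 to 14930 after WGP, and 11 of 11 rose. Endothelial markers fell in 9 of 11 genes (366 to 398 CPM after PBS and 116 to 144 after WGP), epithelial markers fell in 9 of 12 and rose in 1, and dendritic cell markers fell in 5 of 10 (361 to 449 CPM and 121 to 183). Neutrophil markers rose in 2 of 12, and in T and NK cell, B cell, fibroblast and platelet lists 2 of 10, 1 of 6, 3 of 11 and 0 of 3 tested genes fell, with none higher. Over all genes tested 15.2% rose and 15.7% fell. The neutrophil share that rose (16.7%) and the B cell and T and NK cell shares that fell (16.7% and 20.0%) were near these. Y-linked transcripts summed to 112, 179 and 9.79 CPM in PBS replicates 1, 2 and 3, a range too wide for repeats of a single RNA sample, and to 205 to 227 CPM after WGP. The part of these differences in the Rab results was not tested, and in bulk RNA fewer cells of a type and less RNA per cell cannot be told apart.

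After WGP 8 Rab genes rose and 2 fell. Rab5a, Rab5b and Rab5c of the early endosome and Rab7 of the late endosome did not pass the test. These lay within 0.12 of no change on the log2 scale. Other Rabs of the early and late endosome moved further: Rab31 (0.61) and Rab24 (0.64) rose. Rab20 (-0.47), Rab7b (-0.36) and Rab34 (-1.55) were lower without passing. The 8 that rose were Rab36, Rab27a, Rab24, Rab3d, Rab31, Rab8b, Rab1b and Rab8a, and the 2 that fell were Rab6b and Rab44. These 10 were 21.7% of the 46 tested. A gene was called changed at an adjusted p under 0.05 in edgeR's quasi-likelihood test over all 12305 genes tested, and 31.0% of those genes were called (15.2% higher and 15.7% lower). The median log2 fold change was 0.01 over the Rab genes and -0.02 over all genes with TMM scaling, -0.05 and -0.08 with upper quartile scaling, and -0.09 and -0.12 with library sizes alone. Changes of at least 2-fold were seen in 8.70% of the Rab genes tested and in 16.7% of all genes. Of the 10 changed Rabs, 7 changed by less than 2-fold. The WGP libraries lay apart from the PBS libraries in 16 of 46 Rab genes, 13 above and 3 below, against 48.1% of all genes (23.2% above and 24.9% below). All of the 10 changed Rabs were among the 16. The balance of directions depended on the scaling: 80.0% of the changed Rabs were higher with TMM scaling, 66.7% with upper quartile scaling and 61.5% with library sizes alone. Over all changed genes the same shares were 49.2%, 39.99% and 33.4%.

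**Figure D1:**
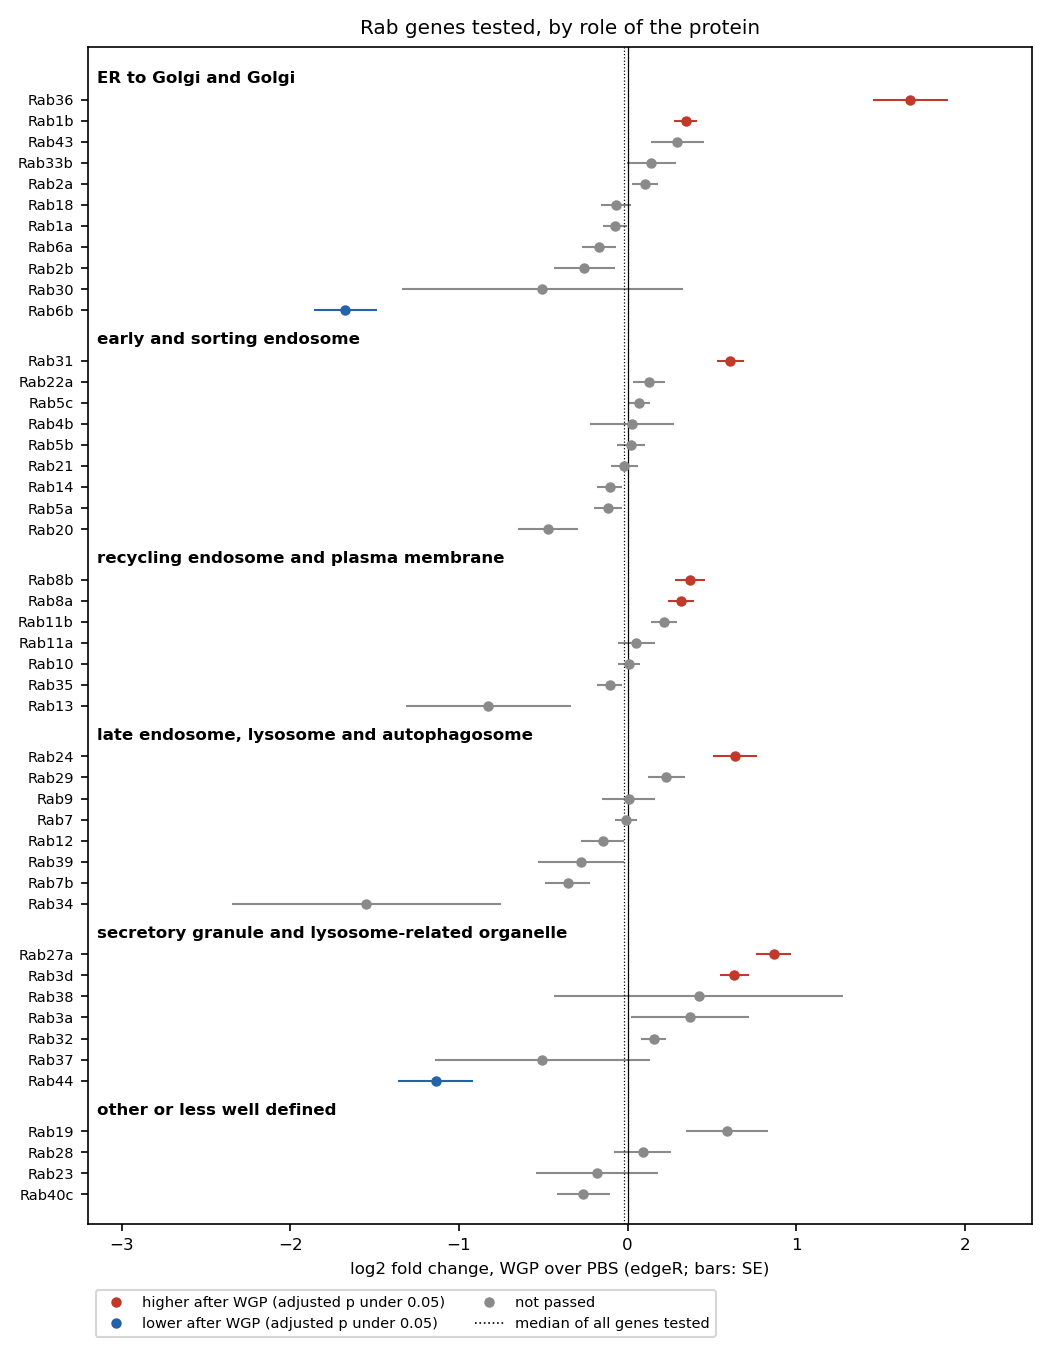
Log2 fold change of WGP over PBS (horizontal axis) for the 46 Rab genes tested, grouped by the role of the protein. Points are edgeR estimates and bars their SE; with TMM scaling, 8 genes lie to the right as higher and 2 to the left as lower, and most others lie close to the dotted median of all genes tested.

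Among the Rabs of the endoplasmic reticulum and Golgi, 11 were tested, of which 2 rose and 1 fell. These were 18.2% and 9.1%, against 15.2% and 15.7% of all genes tested. Rab36, a Golgi Rab linked to the positioning of late endosomes and lysosomes (ENSMUSG00000020175, chromosome 10, 75037058 to 75054748, plus strand of GRCm38), had 6.75, 6.85 and 6.32 CPM in PBS replicates 1 to 3 and 29.3, 16.7 and 17.8 CPM in WGP replicates 1 to 3. All WGP libraries were above all PBS libraries, with replicate 1 well above the other WGP libraries. Among the Rabs that passed this was the largest rise, from 6.64 ± 0.28 to 21.3 ± 6.97 CPM (SD, n = 3), or 3.20-fold (log2 fold change 1.68 ± 0.22 SE, adjusted p = 0.00037). Rab6b, a Golgi Rab that acts in retrograde transport (ENSMUSG00000032549, chromosome 9, 103111787 to 103185276, plus strand), went the other way. It had 16.2, 15.7 and 16.3 CPM after PBS and 5.28, 4.12 and 5.69 CPM after WGP, a tight group on each side with a wide gap between them (log2 fold change -1.68 ± 0.19, adjusted p = 0.00013). Rab1b, which drives vesicles from the endoplasmic reticulum to the Golgi, rose by a smaller step, with 157, 148 and 149 CPM after PBS and 188, 201 and 188 CPM after WGP (0.34 ± 0.07, adjusted p = 0.0034). Its libraries did not overlap between groups. With Rab33a, which was not tested, the 12 genes of this group in the table held 664 ± 24.9 CPM in the PBS group and 691 ± 9.51 CPM in the WGP group.

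Early and sorting endosomes carry 9 of the tested Rabs, and 1 of them rose (11.1%, against 15.2% of all genes tested). This was Rab31, which acts between the trans-Golgi, endosomes and phagosomes (ENSMUSG00000056515, chromosome 17, 65651729 to 65772752, minus strand). Its libraries held 167, 160 and 167 CPM after PBS and 276, 245 and 233 CPM after WGP. The PBS libraries were nearly level and all WGP libraries stood above them, and the level went from 165 ± 3.60 to 251 ± 22.7 CPM, up by 0.61 ± 0.08 on the log2 scale (adjusted p = 0.00029). The 3 Rab5 genes, which organise early endosomes and young phagosomes, stayed close to their PBS level. Rab5c had 329, 335 and 316 CPM after PBS and 342, 343 and 345 CPM after WGP (0.07 ± 0.06, adjusted p = 0.43), and its WGP libraries lay just above the PBS ones with TMM scaling, although the sign turned with library sizes alone (-0.03). Rab5a had 57.0, 60.9 and 59.9 CPM after PBS and 57.1, 55.2 and 51.8 CPM after WGP (-0.12 ± 0.08, adjusted p = 0.33). Rab5b had 99.9, 96.0 and 84.0 CPM after PBS and 92.4, 97.5 and 94.2 CPM after WGP (0.02 ± 0.08, adjusted p = 0.87). Rab5a and Rab5b overlapped between groups. Rab14, a Rab of early endosomes and the Golgi that also sits on phagosomes, had 178, 200 and 178 CPM after PBS and 181, 170 and 167 CPM after WGP (-0.11 ± 0.07, adjusted p = 0.31), again with overlap.

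Rab20, linked to phagosome maturation, had the lowest log2 fold change of the early and sorting endosome group. It had 37.6, 42.0 and 28.7 CPM in PBS replicates 1 to 3 and 30.8, 20.5 and 26.7 CPM after WGP, and the groups overlapped. The log2 fold change was -0.47 ± 0.18 with an adjusted p of 0.070. Whether it passed rested on single libraries and on the method: the adjusted p was 0.022 without PBS replicate 3, 0.033 without WGP replicate 1, 0.048 with DESeq2, 0.040 with upper quartile scaling, 0.034 with library sizes alone and 0.018 when Y-linked transcript level entered as a covariate.

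Of the 7 tested Rabs of recycling endosomes and the plasma membrane, Rab8a and Rab8b rose (28.6%, against 15.2% of all genes tested). Both direct vesicles towards the plasma membrane. Rab8b had 206, 246 and 199 CPM after PBS and 290, 267 and 285 CPM after WGP (log2 fold change 0.37 ± 0.09, adjusted p = 0.0093). Rab8a had 187, 209 and 186 CPM after PBS and 228, 241 and 256 CPM after WGP (0.32 ± 0.08, adjusted p = 0.010). In each gene PBS replicate 2 was the highest PBS library and still lay below every WGP library. Both calls were lost without PBS replicate 1 (adjusted p = 0.052 for Rab8a and 0.051 for Rab8b) and when Y-linked transcript level entered as a covariate (adjusted p = 0.064 and 0.068). Rab11b, of the recycling endosome, had 79.9, 84.5 and 84.8 CPM after PBS and 90.3, 96.5 and 103 CPM after WGP, without overlap, and did not pass (0.22 ± 0.08, adjusted p = 0.056), though it did without WGP replicate 1 (adjusted p = 0.043). Its close relative Rab11a overlapped between groups, with 52.0, 50.4 and 50.0 CPM after PBS and 60.6, 46.2 and 51.4 CPM after WGP (0.05 ± 0.11, adjusted p = 0.75). Neither Rab10, a Rab of exocytosis and recycling, nor Rab35, of fast recycling and phagosome formation, passed, and both overlapped between groups. Rab10 held 160, 163 and 160 CPM after PBS and 156, 165 and 164 CPM after WGP (0.01 ± 0.07, adjusted p = 0.95). Rab35 held 95.7, 109 and 107 CPM after PBS and 95.5, 99.1 and 95.1 CPM after WGP (-0.11 ± 0.08, adjusted p = 0.32).

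Late endosomes, lysosomes and autophagosomes are served by 8 tested Rabs, of which 1 rose (12.5%, against 15.2% of all genes tested). Rab24, an atypical Rab linked to autophagosomes (ENSMUSG00000034789, chromosome 13, 55319743 to 55321946, minus strand), had 27.3, 20.6 and 25.3 CPM after PBS and 38.9, 34.6 and 40.4 CPM after WGP, without overlap (log2 fold change 0.64 ± 0.13, adjusted p = 0.0039). Its exons overlap those of Prelid1 on the other strand. Prelid1 also rose, from 126 ± 7.00 to 166 ± 11.2 CPM (0.39 ± 0.08, adjusted p = 0.0033), and with the strand setting of the counting not given, the reads of the overlap cannot be assigned. Rab7, the Rab of late endosomes and of phagosomes that fuse with lysosomes, had 331, 343 and 321 CPM after PBS and 339, 319 and 332 CPM after WGP (-0.01 ± 0.07, adjusted p = 0.95). The 2 groups fell over the same range. Rab7b, which acts between late endosomes and the trans-Golgi, had 46.5, 40.2 and 46.0 CPM after PBS and 41.5, 29.4 and 32.9 CPM after WGP (-0.36 ± 0.13, adjusted p = 0.065). WGP replicate 1 lay among the PBS libraries, and without it the adjusted p was 0.012. Rab7b also passed with upper quartile scaling (adjusted p = 0.039) and with library sizes alone (0.029). Rab34, linked to the positioning of lysosomes and to phagosome fusion with them, was scarce, at 1.46, 1.61 and 1.66 CPM after PBS and 1.23, 0.158 and 0.219 CPM after WGP. All WGP libraries were below all PBS libraries, but the spread was wide (-1.55 ± 0.80, adjusted p = 0.17). Without WGP replicate 1, the highest of that group, Rab34 passed (-3.02, adjusted p = 0.021).

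Rabs of secretory granules and lysosome-related organelles had the highest median log2 fold change of the role groups, 0.37 over 7 tested genes. This median is the value of a scarce gene that did not pass, Rab3a (0.37 ± 0.35, adjusted p = 0.46). Rab3a had 2.85 ± 0.37 CPM after PBS and 3.69 ± 0.90 CPM after WGP. Over the 7 genes the log2 fold change ran from -1.14 to 0.87. Of them 2 rose and 1 fell (28.6% and 14.3%, against 15.2% and 15.7% of all genes tested). Rab27a, which docks secretory granules and lysosome-related organelles at the plasma membrane (ENSMUSG00000032202, chromosome 9, 73044854 to 73097629, plus strand), had 49.6, 55.3 and 43.3 CPM after PBS and 83.7, 96.2 and 90.3 CPM after WGP. The WGP libraries were all well above the PBS ones, and the level rose 1.82-fold, from 49.4 ± 5.97 to 90.1 ± 6.24 CPM, or by 0.87 ± 0.10 on the log2 scale (adjusted p = 0.00018). Rab3d, a Rab of regulated exocytosis (ENSMUSG00000019066, chromosome 9, 21907491 to 21918192, minus strand), had 55.4, 53.5 and 54.8 CPM after PBS and 92.7, 78.5 and 83.0 CPM after WGP. Here the PBS libraries were almost equal, and the rise was 1.55-fold (0.63 ± 0.09, adjusted p = 0.00040). The 2 Rabs that build lysosome-related organelles did not pass. Rab32 had 102, 105 and 103 CPM after PBS and 111, 125 and 110 CPM after WGP, which was higher in every WGP library (0.16 ± 0.08, adjusted p = 0.15). Rab38 was near the limit of detection, at 0.826, 0.519 and 1.09 CPM after PBS and 0.112, 2.01 and 1.15 CPM after WGP. Its counts after WGP were 2, 38 and 21, and with this spread its direction is not resolved (0.42 ± 0.86, adjusted p = 0.75).

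Rab44, a large atypical Rab with calcium-binding EF hands that acts in granule exocytosis (ENSMUSG00000064147, chromosome 17, 29114145 to 29148980, plus strand), fell. It had 83.9, 107 and 70.3 CPM in PBS replicates 1 to 3 and 37.2, 30.8 and 50.5 CPM in WGP replicates 1 to 3. Each WGP library was below each PBS library, and both groups were spread (87.0 ± 18.4 to 39.5 ± 10.01 CPM; edgeR adjusted p = 0.0098, log2 fold change -1.14 ± 0.22). The sum of the 17 alveolar macrophage markers was 6504, 7755 and 5125 CPM in PBS replicates 1 to 3, and 1298, 1662 and 1467 CPM in WGP replicates 1 to 3, the same order of libraries as Rab44 after PBS but not after WGP. Rab27a, Rab36, Rab8a and Rab8b, which rose, had the same order after PBS too, while Rab1b, Rab24, Rab3d and Rab31 did not. The part of these markers in the fall of Rab44 was not tested.

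**Figure D2:**
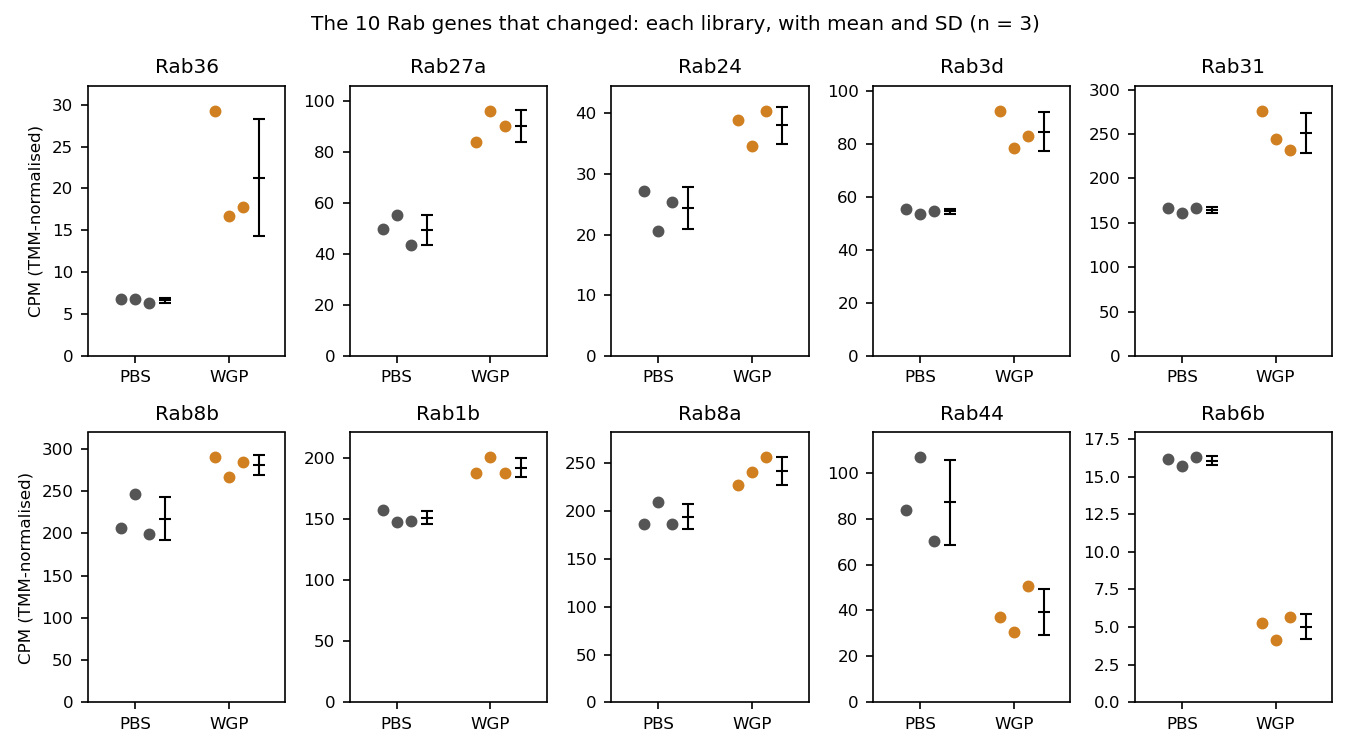
CPM (TMM-normalised, axes from 0) of the 10 changed Rab genes in each library, grey for PBS and orange for WGP in replicate order, with the mean and SD of 3 libraries beside the points. In all 10 panels the groups do not overlap; WGP replicate 1 stands apart in Rab36.

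The promoters of 3 of the Rabs that rose, Rab27a, Rab31 and Rab3d, are shown with that of Rab5a, whose transcript did not pass, to set side by side genes that moved and one that stayed near its PBS level. Sequences are from RefSeq, build GRCm38.p6, read 5′ to 3′ on the strand of the gene: the 250 bases before a start site, less any base that the annotation places in an exon. Capitals mark CACGTG, the E-box bound by factors such as TFEB and TFE3, which act on lysosomal genes. Rab27a has 2 start sites here, upstream at chr9:73044560-73044809 (plus strand) and internal at chr9:73063898-73064147 (plus strand). The others are Rab31 at chr17:65772753-65773002 (minus strand), Rab3d at chr9:21918193-21918433 (minus strand) and Rab5a at chr17:53478984-53479233 (plus strand).
Rab27a upstream: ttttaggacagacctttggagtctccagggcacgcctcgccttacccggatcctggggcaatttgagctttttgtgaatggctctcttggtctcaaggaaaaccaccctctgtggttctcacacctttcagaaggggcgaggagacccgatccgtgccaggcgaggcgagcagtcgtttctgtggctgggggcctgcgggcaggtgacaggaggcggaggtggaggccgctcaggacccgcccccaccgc
Rab27a internal: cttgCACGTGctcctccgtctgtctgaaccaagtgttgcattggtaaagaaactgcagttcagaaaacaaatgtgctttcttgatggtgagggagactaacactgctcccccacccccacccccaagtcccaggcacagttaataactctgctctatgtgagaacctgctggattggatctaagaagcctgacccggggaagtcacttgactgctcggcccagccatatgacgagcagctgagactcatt
Rab31: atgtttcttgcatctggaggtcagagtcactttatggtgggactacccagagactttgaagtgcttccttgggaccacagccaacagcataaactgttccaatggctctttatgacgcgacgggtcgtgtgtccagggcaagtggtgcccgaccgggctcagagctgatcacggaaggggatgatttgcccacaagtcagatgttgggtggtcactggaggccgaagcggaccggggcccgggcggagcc
Rab3d: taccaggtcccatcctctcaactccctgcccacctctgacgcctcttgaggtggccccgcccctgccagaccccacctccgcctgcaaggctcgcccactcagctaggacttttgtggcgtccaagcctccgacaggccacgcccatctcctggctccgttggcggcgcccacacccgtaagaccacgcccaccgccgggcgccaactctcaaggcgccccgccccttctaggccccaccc
Rab5a: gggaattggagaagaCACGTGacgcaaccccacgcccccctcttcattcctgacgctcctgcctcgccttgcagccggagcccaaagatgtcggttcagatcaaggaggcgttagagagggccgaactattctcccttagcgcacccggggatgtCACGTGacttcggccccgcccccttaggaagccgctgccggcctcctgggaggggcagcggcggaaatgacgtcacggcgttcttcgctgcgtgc
In these windows the E-box is found 95 and 235 bases before the start in Rab5a and 246 bases before the internal start of Rab27a, and there is none in the Rab31 and Rab3d windows. Over whole windows of 300 bases (250 before to 50 after a start), searched for CACGTG, which reads the same on both strands, 6 of 60 Rab windows held it, 2 of the 8 windows of Rabs that rose and 4 of the 38 windows of Rabs that did not pass. The share was 9.70% over 12469 windows of genes tested and 7.15% over all 32851 windows. The longer GTCACGTG, searched on both strands and containing CACGTG, was in 3 of 60 Rab windows and in 3.98% of the windows of genes tested. A match is a description of the letters only. The Rab5a window shown is among the 4 of 38 that held CACGTG, so it does not stand for the Rabs that did not pass. Among windows of Rabs that rose, the internal one of Rab27a is shown and the other with CACGTG is not. Windows were given for 48 of the 59 Rab genes; Rab36 and Rab44 have none.

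Levels can be set beside each other only per length, here as CPM per kb of exon. On that scale Rab5c was the highest Rab in both groups, 149 ± 4.55 after PBS and 156 ± 0.64 after WGP, followed by Rab7 (127 ± 4.31 and 126 ± 3.98) and Rab1b (66.6 ± 2.29 and 84.5 ± 3.32). The libraries of these 3 neighbours did not overlap after PBS. The next Rabs lay closer together: Rab1a (50.2 ± 2.94), Rab8b (45.9 ± 5.37) and Rab10 (45.8 ± 0.54) overlapped in turn after PBS, as did Rab32 (44.1 ± 0.72), Rab31 (43.2 ± 0.94) and Rab8a (41.5 ± 2.81). The 10 highest Rabs held 64.5% of the summed per-kb level of the family after PBS and 66.2% after WGP, and 9 genes were in the top 10 of both groups. Rab31 went from rank 8 after PBS to rank 4 after WGP and Rab27a from rank 22 to rank 14. In the other direction, Rab44 went from rank 17 to rank 29 and Rab6b from rank 34 to rank 40. The lowest of the changed Rabs, Rab36, went from 1.07 to 3.44 CPM per kb, rank 41 to rank 34. Summed over the family, Rab transcripts held 3314, 3482 and 3226 CPM after PBS and 3637, 3574 and 3615 CPM after WGP. All WGP libraries were above the PBS libraries on this TMM scale. The per-kb sum of the family was 1008 after PBS and 1091 after WGP with TMM, against 1044 and 1053 with library sizes alone, which narrowed the gap. Without TMM factors the share of all counts taken by the family overlapped between the groups.

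**Figure D3:**
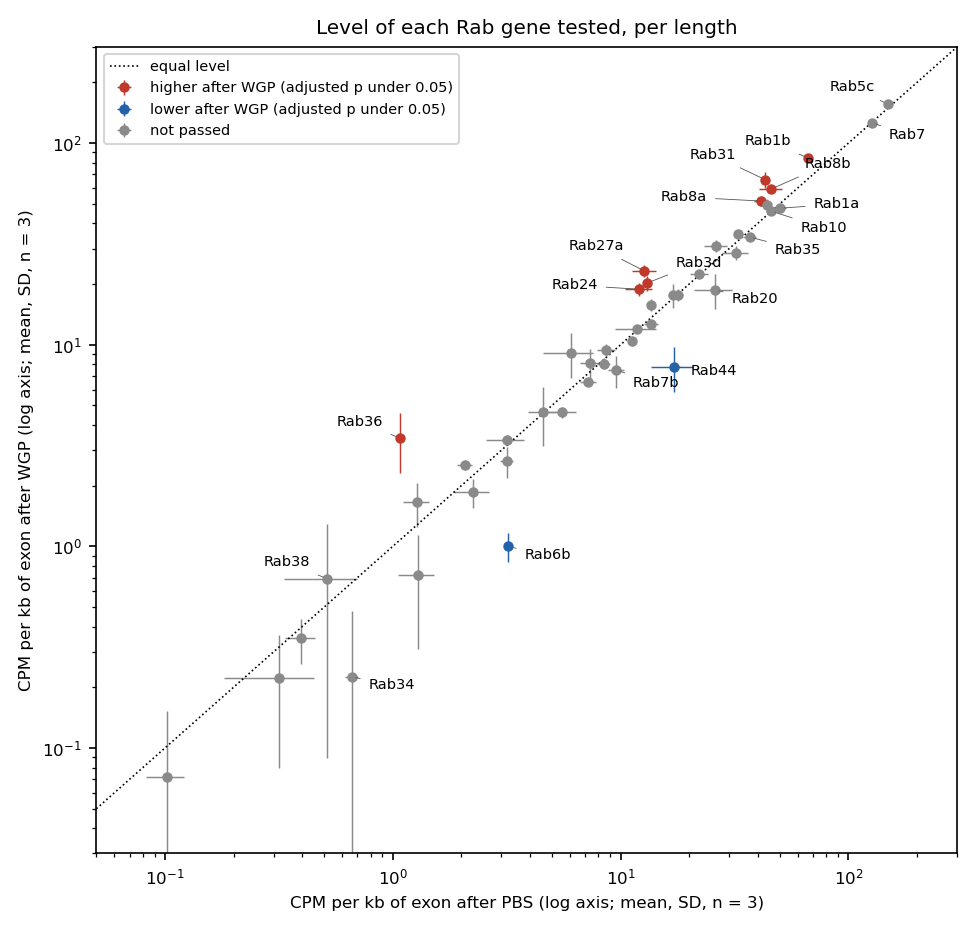
Mean level of each tested Rab gene in CPM per kb of exon after PBS (horizontal, log axis) and after WGP (vertical, log axis), with SD of 3 libraries; bars that would reach 0 run off the axis. Rab5c and Rab7 stand highest and on the dotted line of equal level, Rab36 and Rab27a lie above it, and Rab6b and Rab44 below.

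Related Rabs can share roles, so the count ratio of 10 pairs of relatives was taken within each library. The Rab6b to Rab6a ratio was 0.138, 0.116 and 0.154 after PBS and 0.0506, 0.0419 and 0.0496 after WGP, lower in every WGP library. Rab6a, the ubiquitous Golgi Rab of this pair, itself had 117, 136 and 106 CPM after PBS and 105, 98.8 and 115 CPM after WGP and did not pass (-0.17 ± 0.10, adjusted p = 0.22, and 0.049 with library sizes alone). The Rab1b to Rab1a ratio went from 0.826, 0.734 and 0.828 after PBS to 1.06, 1.11 and 1.02 after WGP. Rab1a, the other Rab1 of transport to the Golgi, had 190, 202 and 179 CPM after PBS and 177, 181 and 185 CPM after WGP (-0.08 ± 0.07, adjusted p = 0.45). The Rab31 to Rab22a ratio was 2.95, 2.36 and 2.67 after PBS and 4.27, 3.72 and 3.17 after WGP, higher in every WGP library. Rab22a, an early endosome Rab, did not pass (0.12 ± 0.09, adjusted p = 0.35). The groups did not overlap in 5 of the 10 pairs, the other 2 being Rab2b to Rab2a and Rab5a to Rab5c. For these 5 an exact permutation test gave a two-sided p of 0.1, the smallest that 3 against 3 libraries allow, and 0.2 adjusted over the 10 pairs, so no pair could pass. The Rab8b to Rab8a ratio, between genes that both rose, differed by 0.06 on the log2 scale between the groups and overlapped (exact permutation test, p = 0.5).

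**Figure D4:**
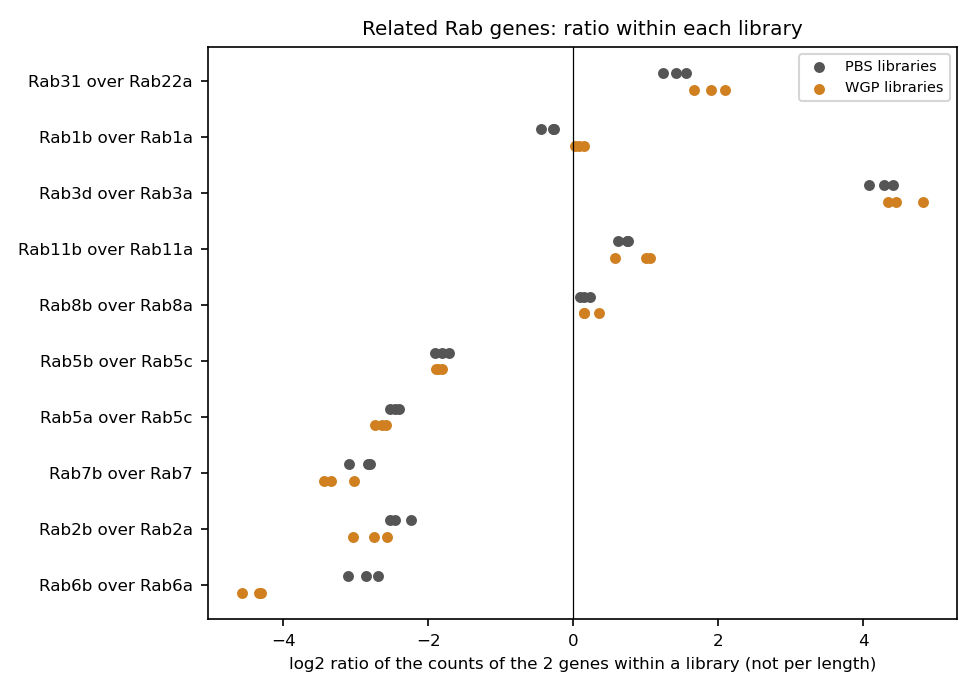
Log2 ratio of the counts of 2 related Rab genes within a library (horizontal axis, not per length) for 10 pairs, grey for PBS and orange for WGP libraries, 3 points each. The Rab6b to Rab6a ratio is shifted left after WGP and the Rab1b to Rab1a and Rab31 to Rab22a ratios to the right, while the Rab8b to Rab8a ratio overlaps.

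The 19 Rabs described on phagosomes cut across these groups. Of the 19 tested, 3 rose (Rab31, Rab8a and Rab8b) and 0 fell. The share that rose, 15.8%, is near the 15.2% of all genes tested, and 15.7% of all genes fell. The median log2 fold change was 0.02, against -0.02 over all genes. Together they held 2155 ± 83.5 CPM in the PBS group and 2344 ± 39.1 CPM in the WGP group on the TMM scale. On that scale the sum over all genes tested was also higher after WGP, 1036090 ± 18312 CPM against 965355 ± 15902 CPM after PBS.

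The 13 Rabs not tested had at most 16 counts, or 0.777 CPM, in any library. They were Rab15, Rab17, Rab25, Rab26, Rab27b, Rab3b, Rab3c, Rab33a, Rab39b, Rab4a, Rab40b, Rab42 and Rab9b. Rab17, Rab3c and Rab9b had 0 counts in all 6 libraries, which allows a level of up to 0.142 to 0.168 CPM per library (3 counts, counting error only). Rab27b, the closest relative of Rab27a, had 9, 9 and 8 counts after PBS and 4, 0 and 7 after WGP. Rab25, a recycling Rab of epithelia, had 9, 4 and 10 counts after PBS and 1, 0 and 0 after WGP. The 12 epithelial markers summed to 448 to 873 CPM after PBS and 97.6 to 158 CPM after WGP, none at 0 in either group, and their part in the Rab25 counts was not tested. Rab40b, a Rab of ubiquitin ligase complexes, had 16, 5 and 2 counts after PBS and 0 in each WGP library.

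The proteins that load, switch off, carry and read the Rabs were followed in 5 lists with 149 genes, 145 of them tested. Of these 29 rose and 26 fell, 37.9% in all against the 31.0% of all genes, with a median log2 fold change of 0.01. Fewer passed when 1 library was left out: 30 without PBS replicate 1, 33 without PBS replicate 2 and 34 without WGP replicate 3. Calls over all genes fell too, from 1874 higher and 1935 lower to 1202 and 1289 without PBS replicate 1. They were 1477 and 1483 without PBS replicate 2, and 1407 and 1578 without WGP replicate 3. Among the partners, the number that rose was 18 with upper quartile scaling and 11 with library sizes alone. Over all genes it was 1468 and 1236.

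Among 43 exchange factors, 10 rose and 7 fell (23.3% and 16.3%, against 15.2% and 15.7% of all genes tested). Sbf2, a GEF of Rab21 and Rab28, fell from 58.4 ± 5.75 to 25.6 ± 3.99 CPM, by 1.19 ± 0.13 on the log2 scale (adjusted p = 0.00011), and Rab3il1, a GEF of Rab8 and Rab3, fell from 63.0 ± 7.59 to 18.1 ± 5.71 CPM (-1.80 ± 0.22, adjusted p = 0.00083). Rab3il1 had 68.7, 65.8 and 54.4 CPM after PBS and 24.4, 16.9 and 13.1 CPM after WGP, far below in every library, whereas Rab3d, Rab8a and Rab8b rose. Of the 9 subunits of the TRAPP complexes, which load Rab1 and Rab11, 5 rose and 1, Trappc5, fell (-0.36 ± 0.11, adjusted p = 0.034). These subunits were grouped after their values were seen, so their count cannot be weighed against the shares over all genes. The Trappc5 call was lost without any of 4 libraries in turn, PBS replicates 1 or 2 or WGP replicates 1 or 3 (adjusted p = 0.089 to 0.098). Trappc1, in the core of these complexes, rose from 33.9 ± 2.90 to 54.8 ± 1.55 CPM (0.69 ± 0.10, adjusted p = 0.00048). Dennd1a, a GEF of Rab35, rose from 75.8 ± 9.29 to 106 ± 3.90 CPM (0.49 ± 0.09, adjusted p = 0.0030).

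The TBC-domain GAPs were split evenly, with 8 of 38 higher and 8 lower (21.1% each way, against 15.2% and 15.7% of all genes tested). Tbc1d1, a GAP of Rab8, Rab10 and Rab14, had 70.6, 75.6 and 81.6 CPM after PBS and 160, 146 and 212 CPM after WGP, all WGP libraries far above PBS (1.18 ± 0.13, adjusted p = 0.00034). Tbc1d9 fell from 256 ± 33.4 to 142 ± 7.49 CPM (-0.85 ± 0.10), Sgsm3 from 21.7 ± 2.35 to 9.29 ± 1.12 CPM (-1.22 ± 0.16), and Tbc1d16, a GAP of Rab4, from 19.0 ± 4.96 to 6.60 ± 0.12 CPM (-1.53 ± 0.21).

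Effectors and tethers had 8 higher and 9 lower of 45 tested (17.8% and 20.0%, against 15.2% and 15.7% of all genes tested). Bicd2, the dynein adaptor that reads Rab6, fell from 93.5 ± 3.86 to 56.4 ± 5.62 CPM (-0.73 ± 0.09, adjusted p = 0.00025), in the same direction as Rab6b. Rab11fip3, a Rab11 effector, fell from 13.96 ± 1.93 to 4.28 ± 0.95 CPM (-1.70 ± 0.23, adjusted p = 0.00036), while neither Rab11a nor Rab11b passed. Plekhm2, an adaptor for lysosome movement, fell (-0.61 ± 0.09), and Acap2, a Rab35 effector, rose from 147 ± 2.54 to 192 ± 2.39 CPM (0.38 ± 0.06). Of 9 Rab27 effectors, 6 had enough counts and 1 rose: Unc13d, the Munc13-4 protein that primes granules with Rab27a, had 63.0, 63.9 and 78.0 CPM after PBS and 92.8, 101 and 113 CPM after WGP, without overlap (0.58 ± 0.11, adjusted p = 0.0022). The 6 tested Rab27 effectors ran from -2.40 to 0.58 on the log2 scale with a median of -0.60, and the others did not pass in edgeR. With DESeq2 3 of the 6 passed and with limma-voom 2. The Rab27 effectors were grouped after their values were seen, so their count cannot be weighed against the shares over all genes.

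Of the 11 genes for lipid tails and for the carriers of Rabs, 2 rose and 2 fell. This was 18.2% each way, against 15.2% and 15.7% of all genes tested. Rabac1, a membrane protein that binds prenylated Rabs, fell from 73.8 ± 3.03 to 49.8 ± 5.57 CPM (-0.57 ± 0.10, adjusted p = 0.0015). Gdi2, which returns inactive Rabs to the cytosol, fell from 579 ± 21.6 to 495 ± 31.4 CPM (-0.23 ± 0.07, adjusted p = 0.034). Rabggta, a subunit of the enzyme that attaches the lipid, rose (0.39 ± 0.11, adjusted p = 0.016). The changes of Gdi2 and Rabggta were small, and the calls were lost when any of several libraries was left out. The adjusted p was 0.091 and 0.067 without PBS replicate 1, 0.099 and 0.063 without PBS replicate 2, and 0.115 and 0.061 without WGP replicate 3. For Gdi2 it was also 0.108 without WGP replicate 2. Calls over all genes tested were also fewer without each of these libraries. Of 8 subunits of HOPS and CORVET, the tethers of Rab7 and Rab5, 1 changed (12.5%, against 31.0% of all genes tested). Vps8 of CORVET rose from 31.3 ± 3.34 to 44.7 ± 3.04 CPM (0.51 ± 0.11, adjusted p = 0.0055). Vps18, of the core that both tethers share, did not pass (-0.26, adjusted p = 0.077), though it did without WGP replicate 1 (adjusted p = 0.023).

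Arf and Arl genes, another family of small GTPases of membrane traffic, were counted for comparison. Of 25 tested, 4 rose and 1 fell, with a median log2 fold change of 0.06. No test of the difference between this family and the Rabs was made.

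**Figure D5:**
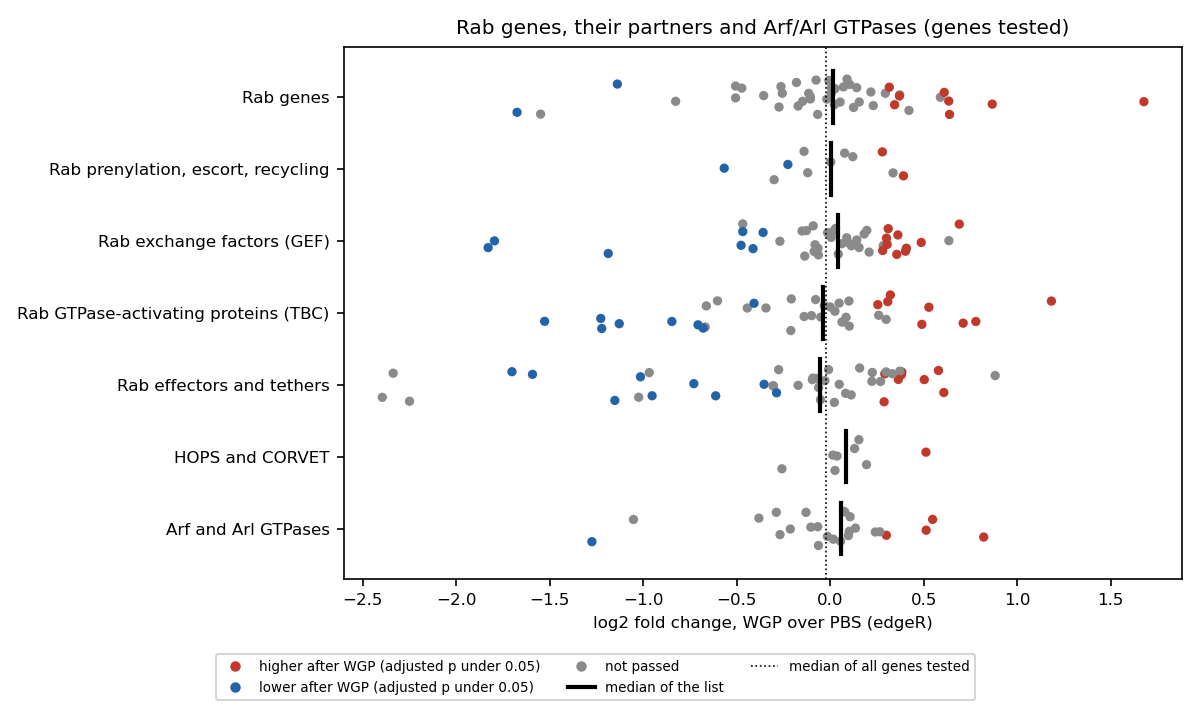
Log2 fold change of WGP over PBS (horizontal axis) of each tested gene in the Rab family, the 5 lists of Rab partners and the Arf/Arl family, 1 point a gene, red for higher, blue for lower and grey for not passed. Black bars are list medians and the dotted line is the median of all genes tested; all list medians lie near 0, with changed genes on both sides except in HOPS and CORVET, where 1 rose.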

How the data were processed

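The data are bulk RNA-seq counts of 6 libraries, 3 PBS and 3 WGP, grouped and numbered by their labels. Read counts per gene were made and deposited by the authors, with FastQC 0.10.1, HTSeq 0.10.0 and the builds mm10 and GRCm38 named per the submitters' processing notes. Aligner, annotation and strand setting: not given in the sources used here. GENCODE M21 gave symbols, positions and exon lengths, matching 21939 of 21965 identifiers.

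The groups were compared in R 4.3.3 with edgeR 4.0.16: filterByExpr, TMM, robust glmQLFit and a two-sided quasi-likelihood test, Benjamini-Hochberg adjusted over 12305 genes at 0.05. The SE is the log2 fold change divided by the root of F, and CPM use TMM factors. The SE ran from 0.06 to 0.86 for tested Rabs, at most 0.22 where the PBS mean was 40 CPM or more. The test was tested on simulated data. Replicates differed beyond sampling noise (chi-square per degree of freedom 13.5 to 24.8). Counting may split or drop reads of closely related Rabs, which makes those values less certain. Exons of 17 of the 46 tested Rabs overlap another gene, among the changed ones those of Rab24 and Rab27a.

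The members and lists were chosen with earlier results of these data known. Values per library are given for every changed Rab with a mean of at least 5 CPM in either group and for Rabs fixed by name, and each other list names up to 4 genes by smallest p. Rab6a, Rab1a, Rab11b, Rab22a, Rab3a, the untested Rabs given with counts, Prelid1, Trappc5, Unc13d and the TRAPP and Rab27 effector groups were chosen after their values were seen. Alternatives were other scalings, filters and tools (DESeq2 1.42.0, limma-voom of limma 3.58.1), a replicate block, a Y-linked covariate, another gene length and leaving out each library. Protein sequences were not analysed here, and some genes that met the naming rule are not reported here.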

Additional observations from a re-analysis of the deposited data

How the results depend on the processing

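The 10 changed Rabs kept their direction under all 16 alternatives, and Rab1b, Rab24, Rab27a, Rab31, Rab36, Rab3d and Rab6b also kept their call. The number of changed Rabs was 8 to 15 when 1 library was left out, with 15 without WGP replicate 1. The number that fell was 4 with upper quartile scaling, 5 with library sizes alone, and 2 to 5 when 1 library was left out. Upper quartile scaling moved the median of all genes to -0.08 and library sizes alone to -0.12. Changed partner genes numbered 30 to 52 when 1 library was left out (14 to 27 higher and 16 to 28 lower), and those higher were 18 with upper quartile scaling and 11 with library sizes alone. The cause was not tested.

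With the replicate number as a block, 11 Rabs changed, 9 of them shared with the fit without it; Rab44 was lost (adjusted p = 0.058) and Rab19 and Rab7b were gained. Changed partners were 45. The numbers did not pair the libraries (correlations of same-numbered deviations from -0.08 to -0.05).

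The summed CPM per kb was 1170 after PBS and 1260 after WGP by the longest transcript, 1044 and 1053 with library sizes alone, and 1068 after WGP with upper quartile scaling.

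Rabs near no change turned sign, none of them passing. With upper quartile scaling the log2 fold change was -0.038 for Rab5b, -0.0076 for Rab11a and -0.054 for Rab10. With library sizes alone it was -0.080 for Rab5b, -0.031 for Rab5c, -0.049 for Rab11a and -0.096 for Rab10. With the Y-linked covariate it was -0.077 for Rab5b and -0.0012 for Rab10, and Rab10 had -0.0016 with the CPM filter. Rab38 had -0.19 with limma-voom and -0.012 with the replicate block. Leaving out 1 library gave -0.051 to 0.069 for Rab5b, -0.033 to 0.020 for Rab7, -0.056 to 0.14 for Rab11a, -0.36 to 0.95 for Rab38 and -0.0075 to 0.033 for Rab10. Low counts and the spread between libraries limit Rab30, Rab34, Rab37 and Rab38, whose levels were under 3 CPM in every library.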
